A study of Homo sapiens with 24 samples.

Results

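Genes with at least 100 kb of intron sequence were followed through the soluble and insoluble cytoplasm of U2OS cells, an established human osteosarcoma line, as a view of long pre-mRNA that still carries intron sequence. A gene was included when its row in the intron count table listed a length of 100000 bases or more and held at least 1 count in any of the 24 libraries, so the members were chosen by length and by a count above 0, and no treatment or fraction entered the choice. Among 37473 rows 4613 had that length, and 4369 of them (11.7% of all rows) also had a count. These 4369 genes held 62.3% of all intron bases in the table. The other 244 long rows were at 0 in every library, and 234 of those had no intron base outside the introns of other genes. Just below the limit lay STT3B, with 99973 intron bases and 22629 counts over all libraries, and CLTCL1, with 99979 bases and 14810 counts. Just above it lay TMC2, with 100002 bases and 218 counts, and C1QTNF7, with 100053 bases and 70 counts.

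The study set 4 treatments side by side, each split into 2 cytoplasmic fractions with 3 replicates. Ctrl cells received 0.12% DMSO for 2 h, NaAsO2 cells received 500 µM sodium arsenite for 60 min to induce stress granules (SGs), RK-33 cells received 6 µM of RK-33, an inhibitor of the ATPase of the RNA helicase DDX3, with a 1 h pre-treatment, and Combo cells received 6 µM RK-33 for 1 h before 500 µM NaAsO2 for 60 min. The nuclei were pelleted first, and the remaining lysate was spun into a soluble supernatant and an insoluble pellet enriched for SGs and P-bodies. All 8 groups are therefore 1 cell line, with no genotype or knockdown. The whole experiment was run 3 times in every condition, and the labels number these replicates without naming cultures or days, so p-values measure the spread between the runs as deposited.

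Introns are cut out of pre-mRNA by the spliceosome, largely while transcription is still running, and the excised lariat is normally debranched and degraded in the nucleus. The human genes with the longest introns include cell adhesion molecules of the nervous system, genes at common fragile sites and many transcription regulators. In a cytoplasmic extract a read in an intron can come from unspliced or partly spliced pre-mRNA, from a lariat, from another transcript that lies in the intron, or from nuclear RNA set free at lysis. The counts do not separate these sources.

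The start of an intron is set by the 5′ splice site, which begins with GT in nearly all human introns. To show which boundary the longest stretches begin with, the last 10 exon bases and the next 20 bases of the longest intron stretch bounded by the gene's own exons were read from hg38 for some of the leading genes described below, with the GT of the splice site in capitals. The sites were those of PTN (chr7:137251210-137251239, minus strand), ZC4H2 (chrX:65034609-65034638, minus), NDUFAF2 (chr5:60945419-60945448, plus), NEDD9 (chr6:11382119-11382148, minus), TNRC18 (chr7:5407130-5407159, minus), CNTNAP2 (chr7:147395771-147395800, plus), RBFOX1 (chr16:5867326-5867355, plus), PTPRD (chr9:10340943-10340972, minus), DMD (chrX:33339239-33339268, minus) and DLG2 (chr11:85285200-85285229, minus).
PTN: aaacctcaagGTaagtccttgccattatac
ZC4H2: cgacgtgaagGTaagcgtgggtgaggagag
NDUFAF2: tgattgcgagGTcagtaaaggagggaaaag
NEDD9: ctacacttggGTgagttctcagccacttgc
TNRC18: gacgtgcaggGTgagccccctgtcccacca
CNTNAP2: tcatagacagGTaaatgatcttttcatcct
RBFOX1: caaagctgagGTaggaaacgtggtttttct
PTPRD: cacacaactaGTaagtaatatctgtgaact
DMD: ggcatggaagGTaggattattaaagctatt
DLG2: atcttcagagGTatactactgaaacttcca
The stretch that follows the exon ran for 14.99 kb in PTN, 100.1 kb in NDUFAF2, 127.7 kb in DMD and 307.2 kb in PTPRD. Of 4293 long-intron genes with such a stretch 81.0% began it with GT, against 84.8% of 20397 genes with shorter introns, and the sequence GTAAG stood at the start in 30.2% against 23.3%. The start GTGA, seen in NEDD9 and TNRC18, stood in 17.7% of the long-intron genes and 24.7% of the others. These shares describe the letters only. Of 16 sites read for leading genes 13 began with GT. In CCNG2, LINC01278 and the non-coding ENSG00000230623 the longest stretch did not begin with GT, and their sites are not shown.

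The libraries held between 10968059 and 19799530 exon plus intron counts, of which introns took 13.3 to 37.5%. In the intron counts of the long-intron genes 3 libraries stood apart, replicate 3 of the NaAsO2 insoluble, the Combo soluble and the Combo insoluble groups. They differed from their partners by a chi-square per degree of freedom of 46.9, 12.2 and 19.2 at most. The other replicate pairs lay at 1.35 to 7.72. The NaAsO2 insoluble library of these 3 also had 5.79% of its exon counts in RN7SL1, against 0.426 and 0.798% in its partners. The soluble libraries had 7.51 to 15.5%. Replicate 3 of Combo had 8.56% (soluble) and 1.23% (insoluble). The reason was not tested. Results that rest on these 3 libraries are given with and without them. The cell line markers VIM, FN1, SPARC, RUNX2 and CDH2 were present in both fractions (medians of 56.0 to 2713 CPM, exon counts scaled to a library of 1e6, over 12 libraries each). Of the markers of other cell types, PTPRC of leukocytes had medians of 0.731 (soluble) and 1.35 CPM (insoluble) and ALB of liver was at a median of 0. GFAP of glia had medians of 0.548 and 0.683 CPM. EPCAM of epithelium, at 4.45 and 2.12 CPM, and SNAP25 of neurons, at 8.10 and 13.7 CPM, were higher than these. RNAs known to stay in the nucleus were found in both fractions and did not move as 1 group. MALAT1 had median levels of 10348 CPM (soluble) and 4362 CPM (insoluble). The medians of the others listed were higher in the insoluble fraction. NEAT1 had 524 and 1576 CPM, KCNQ1OT1 16.3 and 61.6, TUG1 152 and 208, PVT1 136 and 254, and FTX 34.3 and 59.7. The summed level of these 6 RNAs ranged from 5976 to 17388 CPM over the soluble libraries and from 2179 to 9737 CPM over the insoluble ones. MALAT1 made up most of this sum, so the sum mainly followed MALAT1. Their part in the differences below was not tested.

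The long-intron genes were mostly coding. Protein-coding genes made up 3135 of them (71.8%) and long non-coding RNA genes 1163 (26.6%), and all 4369 were also listed in the exon table. Their summed intron length had a median of 180.3 kb, divided over a median of 23 stretches, and reached 2438010 bases in RBFOX1. The introns were AT-rich, with a median GC content of 39.4% against 44.7% in the genes with shorter introns, and GC fell from 49.0% below 10 kb to 37.7% at 500 kb and above. Long-intron genes were unevenly spread over the chromosomes, with 25.7% of the rows with a count on chromosome 4 and 2.64% on chromosome 19. Because reads were counted without strand, and introns of different genes overlap, 2921 of the 4369 had at least 90% of their intron bases to themselves and 489 had less than 50%. In unshared bases, reads from an antisense or unannotated transcript cannot be told apart from those of the named gene.

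Intron reads reached nearly every member but were concentrated in a minority. A count was found in every library for 3833 genes, while 141 had fewer than 24 counts over all libraries, and the median gene had 4145. The 20 genes with the most intron counts held 9.54% of the members' total and the top 500 held 56.3%. NTM, a neuronal adhesion molecule of the IgLON family, had the most (481526 counts over 942.0 kb). Per kb of intron the highest was TRIO, a guanine nucleotide exchange factor, with 1103 counts per kb, followed by ALCAM, EXT1, PVT1, SAMD4A and ITGB1. The length alone did not set the level: DMD, with 2180375 intron bases, had 724 counts, whereas DLG2, with 2145965, had 84862.

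**Figure D1:**
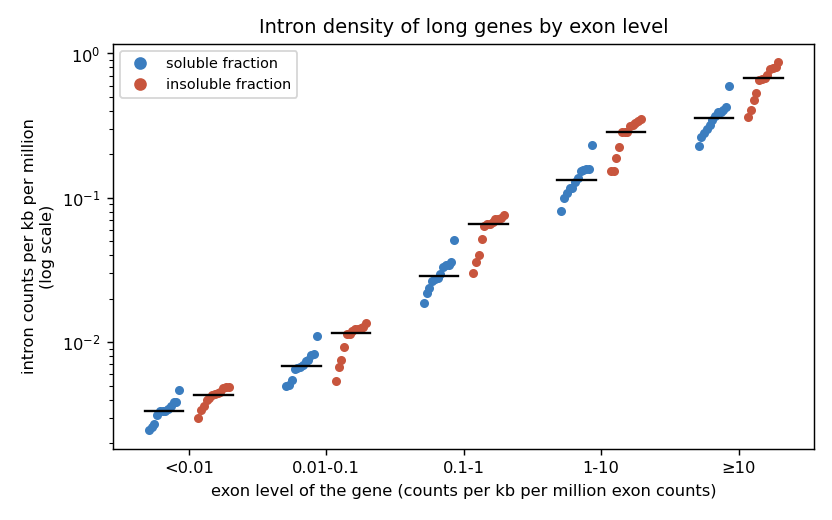
Intron counts per kb and per 1e6 library counts (y, log scale) of the long-intron genes, summed over the genes of each exon-level class (x, exon counts per kb and per 1e6 exon counts), with 1 point per library, 12 soluble and 12 insoluble, and a line at the median. The soluble medians climbed from 0.00333 in the lowest class to 0.358 in the highest, and the insoluble medians from 0.00433 to 0.675.

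The intron level followed the exon level of the same genes. The genes were put in classes by exon level (exon counts per kb and per 1e6 exon counts), and the intron counts of each class were summed and divided by its kb of intron and by the library total in units of 1e6. The 448 genes with an exon level under 0.01 had a pooled intron density of 0.00333 in the soluble fraction (median of 12 libraries). The 1578 genes between 1 and 10 had 0.132, and the 544 genes at 10 or more had 0.358. In the insoluble fraction the same classes had 0.00433, 0.286 and 0.675. The gap between the fractions was thus small among genes with next to no mature RNA and wider among those with some. Measured per base, the introns of the 2999 long-intron genes with enough exon counts lay at a median of 6.31% of the exon density of the same gene, against 7.18% in 10280 genes with shorter introns.

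As a group, the long-intron genes took a larger part of both the intron reads and the exon reads in the pellet. In Ctrl cells their introns made up 47.3, 45.7 and 49.8% of all intron counts in the soluble replicates. The insoluble replicates had 61.3, 61.5 and 61.1%, with no overlap between the fractions. RK-33 cells gave 48.9, 46.5 and 43.8% against 63.2, 62.4 and 61.7%. The NaAsO2 fractions overlapped, at 50.5, 56.3 and 50.6% in the soluble and 61.6, 59.7 and 46.1% in the insoluble libraries, and the 46.1% belonged to the replicate that stood apart. In Combo cells the shares were 49.6, 49.0 and 56.1% against 63.2, 63.3 and 57.3%. The labels do not state that a shared number marks 1 lysate, so the following differences between libraries of the same treatment and number describe the spread and were not tested. The insoluble share was higher in 11 of the 12 such pairs, by 10.7 ± 6.91 percentage points (SD, n = 12), and by 13.7 ± 2.28 in Ctrl (n = 3), 3.34 ± 7.79 in NaAsO2, 16 ± 1.82 in RK-33 and 9.73 ± 7.39 in Combo. Nearly all of that gain sat in the longest genes. The share of introns of 100 to 200 kb rose by a mean of 0.538 points. That of 200 to 500 kb rose by 5.41 and that of 500 kb or more by 4.75. Exons of the long-intron genes made up a mean of 15.37% (soluble) and 25.05% (insoluble) of all exon counts in Ctrl cells. Over all treatments this exon share lay at 11.93 to 15.78% in the 12 soluble and 18.76 to 28.8% in the 12 insoluble libraries. The larger part in the pellet was therefore not limited to introns.

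**Figure D2:**
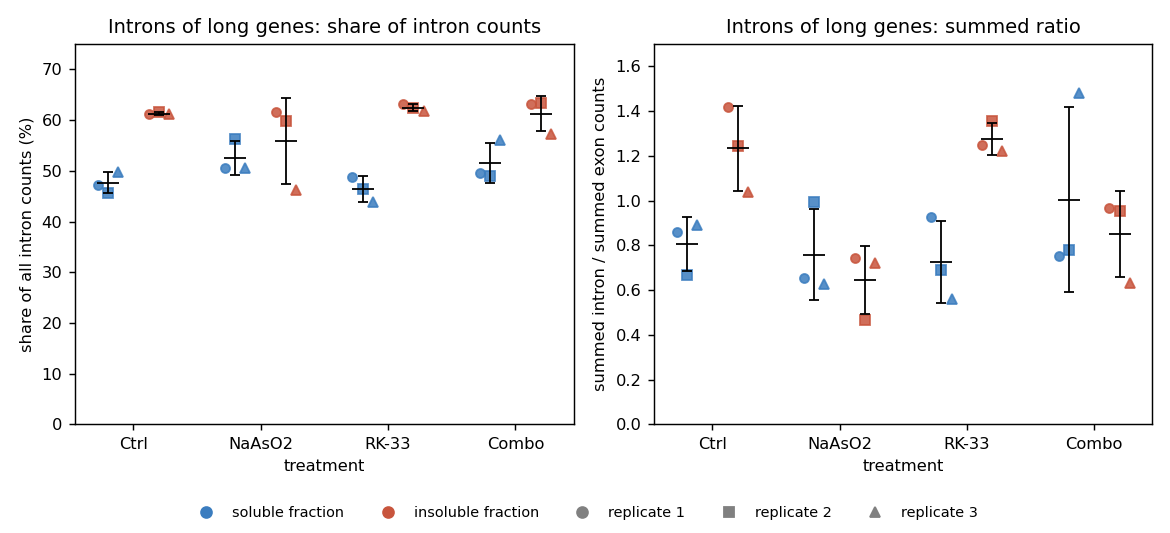
Left, the share of all intron counts (%) that fell in genes with at least 100 kb of introns. Right, their summed intron counts divided by their summed exon counts. Each point is a library, its shape the replicate number, and the bars give the mean ± SD of 3 libraries per treatment and fraction. In Ctrl the insoluble libraries lie at 61.1 to 61.5% and the soluble ones at 45.7 to 49.8%.

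The ratio of summed intron to summed exon counts, which does not depend on how libraries are scaled, gave a less even picture. In Ctrl cells it was 0.861, 0.666 and 0.891 (soluble) and 1.42, 1.25 and 1.04 (insoluble), so long-intron genes in the pellet had more reads in introns than in exons. RK-33 cells had 0.925, 0.689 and 0.562 against 1.25, 1.36 and 1.22. In NaAsO2 cells the fractions overlapped, with 0.653, 0.994 and 0.629 against 0.744, 0.469 and 0.722. Combo cells had 0.752, 0.781 and 1.48 against 0.969, 0.953 and 0.630, and here both outlying values came from replicate 3, whose libraries stood apart. The insoluble ratio exceeded the soluble one of the same number in 10 of 12 cases, by a log2 difference of 0.26 ± 0.74 (SD, n = 12), against 0.49 ± 0.50 in the genes with shorter introns. The ratio climbed with length in both fractions of Ctrl cells, from a mean of 0.0691 (soluble) and 0.0916 (insoluble) below 10 kb to 2.34 and 4.91 at 500 kb and above. It is not divided by length, so genes with more intron bases have a higher ratio at the same density. Measured per base over all libraries, the median intron density did not climb. It was 9.66% of the exon density below 10 kb, 5.67% from 100 to 200 kb and 7.24% at 500 kb and above.

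Gene by gene, the ratio was tested with edgeR's quasi-likelihood test on exon and intron counts together, and a gene was called when its p, adjusted after Benjamini and Hochberg, was under 0.05 and its log2 difference was at least 1 in size. Enough counts for the test were found for 2974 of the 4369 long-intron genes. In Ctrl cells 1204 of them had a higher ratio in the insoluble than in the soluble fraction and 55 a lower one, or 42.3% of the tested members against 27.3% of all 13282 genes tested (25.2% higher and 2.09% lower). Their median log2 difference was 0.86, against 0.55 over all genes, and 85.7% of them lay above 0. In RK-33 cells 1506 were higher and 34 lower (51.8%, against 37.9% of all genes, 36.6% higher and 1.34% lower), with a median of 1.03 against 0.76. NaAsO2 cells gave 551 higher and 213 lower (25.7%, against 23.6%, 17.1% higher and 6.47% lower), and Combo cells 408 and 159 (19.1%, against 15.6%, 9.74% higher and 5.88% lower), with medians of 0.24 and 0.21. Without the 3 libraries that stood apart the Combo count became 831 higher and 67 lower (30.2% of the tested members).

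**Figure D3:**
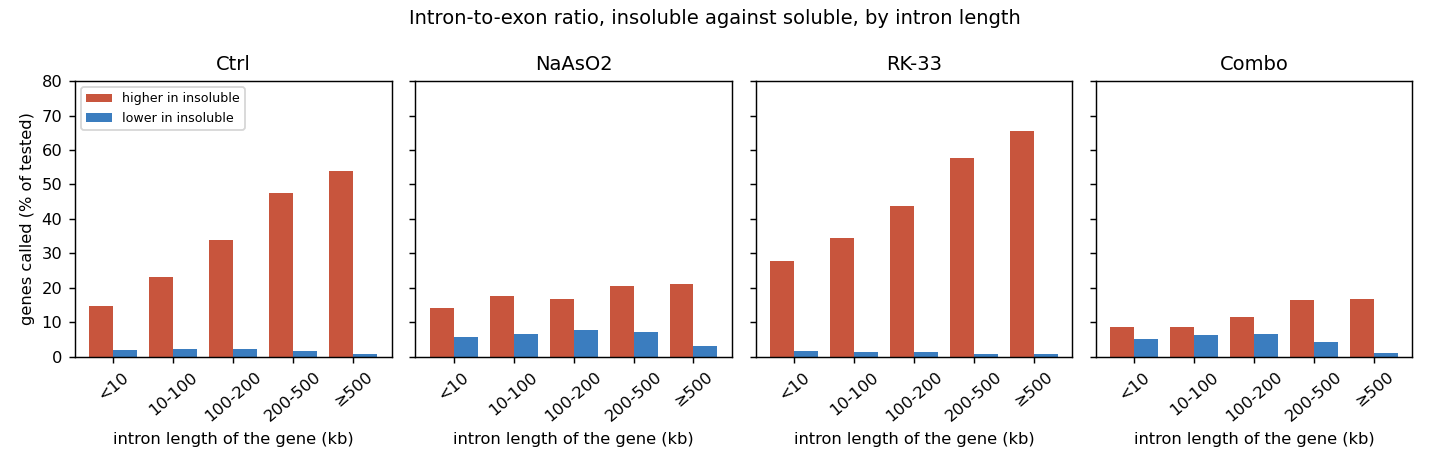
Share of tested genes (%) whose intron-to-exon ratio was called higher or lower in the insoluble than in the soluble fraction, by intron length class (x), with 1 panel per treatment. In Ctrl the called share, both directions together, climbs from 16.5% below 10 kb to 54.7% at 500 kb and above, and in RK-33 from 29.4 to 66.2%.

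The difference between the fractions increased with intron length in the cells without arsenite. In Ctrl cells the median log2 difference was 0.37 below 10 kb, 0.52 from 10 to 100 kb, 0.72 from 100 to 200 kb, 0.97 from 200 to 500 kb and 1.08 at 500 kb and above. The called share over the same classes went from 16.5 to 54.7%. RK-33 cells ran from 0.61 to 1.34 and from 29.4 to 66.2%. NaAsO2 cells showed no such gradient, with medians between 0.20 and 0.29 in the 5 classes. In Combo cells the medians were 0.11, 0.09, 0.12, 0.31 and 0.44. Across the 2974 long-intron genes alone, Spearman's rank correlation of length with the difference was 0.19 in Ctrl and in RK-33, given as a description since these genes share their libraries.

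PTN, a secreted heparin-binding growth factor, led the genes that were higher in the pellet of Ctrl cells. Its ratio was 0.117, 0.115 and 0.156 in the soluble and 0.912, 0.940 and 0.854 in the insoluble libraries, without overlap (log2 difference 2.82, SE 0.26, adjusted p = 2.92e-08). PTN had an intron level higher by 1.3 and an exon level lower in the pellet (log2 -0.82), each scaled on its own. CCNG2, the cyclin G2 gene linked to cell cycle arrest, went from 0.204, 0.208 and 0.246 to 1.3, 1.37 and 1.08 (log2 2.52, SE 0.25, adjusted p = 5.65e-08). In NaAsO2 cells PTN had 0.208, 0.210 and 0.152 against 0.360, 0.286 and 0.333, a log2 difference of 0.78 that fell short of the size limit.

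ZC4H2, which encodes a zinc finger protein of neural development, had the smallest adjusted p in RK-33 cells. Its soluble libraries had ratios of 0.309, 0.252 and 0.140 and its insoluble libraries 4.1, 4.44 and 5.15 (log2 4.33, SE 0.36, adjusted p = 1.39e-09), and in Ctrl cells the ZC4H2 difference was 3.44. LDLRAD3, a receptor of the low-density lipoprotein family, went from 2.41, 1.78 and 1.5 to 18.7, 18.1 and 17.1 in RK-33 cells (log2 3.27, adjusted p = 4.96e-09). In both genes the lowest insoluble library was far above the highest soluble one.

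NDUFAF2, an assembly factor of mitochondrial complex I, and the non-coding LINC01278 stayed high in the pellet under arsenite. NDUFAF2 had ratios of 0.959, 1.98 and 0.935 in the soluble and 9.26, 6.89 and 15.5 in the insoluble NaAsO2 libraries (log2 3.00, SE 0.32, adjusted p = 1.04e-07), and a difference of 2.58 in Combo cells. LINC01278 had 1.00, 1.5 and 0.852 against 6.87, 5.77 and 5.79 (log2 2.50, adjusted p = 8.12e-08) and 2.40 in Combo cells. The 4 fraction comparisons use different libraries, though 1 model. The ratio was higher in the pellet under all 4 treatments for 298 genes, or 18.1% of the 1649 called so in any of them, against 845 of 5670 (14.9%) among all genes tested. Of the 1204 genes called higher in Ctrl cells 1102 (91.5%) were also called in RK-33 cells, where they made up 73.2% of 1506, and over all genes the same shares were 87.2 and 59.98%. Of the 551 called in NaAsO2 cells 454 (82.4%) were among those 1204, which is 37.7% of the Ctrl list, and over all genes the shares were 64.1 and 43.5%.

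A smaller set ran the other way, with a lower ratio in the pellet. AHNAK, which encodes a giant scaffold protein, had ratios of 0.0275, 0.0297 and 0.0289 in the soluble and 0.00378, 0.00288 and 0.00202 in the insoluble Ctrl libraries (log2 -3.35, SE 0.35, adjusted p = 9.2e-08). The AHNAK intron level was not called, while its exon level was higher in the pellet by 3.86. The AHNAK differences in the other treatments were -3.46 in NaAsO2, -2.87 in RK-33 and -3.35 in Combo cells. TNRC18, a chromatin-associated protein, had 0.532, 0.555 and 0.513 against 0.0839, 0.0634 and 0.0769 in NaAsO2 cells (log2 -2.84, SE 0.23, adjusted p = 1.13e-09), again with an exon level higher by 3.84. NEDD9, an adhesion scaffold, had 0.221, 0.149 and 0.208 against 0.0490, 0.0446 and 0.0315 in Ctrl cells (log2 -2.21, adjusted p = 1.6e-06). Unlike AHNAK and TNRC18 it was lower at the intron level itself (log2 -2.46), and 63.1% of its intron bases were its own.

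Only 13 genes were lower in the pellet under all 4 treatments, 4.61% of the 282 called so in any, against 4.58% of 1310 among all genes. They included AHNAK, ANAPC1, ARHGAP35, CMAHP, HERC1, MBP, MSH6, NEDD9, NSD1, PRKDC, RNF213 and TNRC18, and apart from AHNAK, NEDD9 and TNRC18 they are named here after their values were seen. HERC1, PRKDC and RNF213 encode some of the largest human proteins. The median exon length was 13.9 kb in the 55 genes called lower in Ctrl cells, 7.30 kb in the 1204 called higher and 9.60 kb in the 1715 called neither way. The same order held in NaAsO2 cells, at 13, 6.43 and 8.98 kb, and in Combo cells, at 14.2, 6.06 and 8.92 kb. In RK-33 cells the 34 genes called lower had a median of 10.2 kb, next to 10.1 kb in those called neither way and 7.37 kb in those called higher, and 58.8% of the 34 were protein coding, against 86.9% of those called neither way. Genes called lower in Ctrl cells had a median exon-level difference of 1.90 on the log2 scale and a median intron-level difference of -0.40, whereas those called higher had -0.10 and 0.78. Under NaAsO2 the genes called higher had medians of -0.76 (exon level) and 0.34 (intron level), and in Combo cells -0.54 and 0.62. The exon and intron levels were each scaled on their own, so these medians do not settle which was the larger part.

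Counted on their own, intron reads of the long genes were also higher in the pellet. The intron level was tested in 3981 of the 4369 genes, scaled by the trimmed mean of M values over all introns. In Ctrl cells 719 were higher in the pellet and 131 lower (21.4%, against 19% of all 17406 introns tested, 6.6% higher and 12.4% lower). The median log2 difference was 0.52 for the long introns and -0.11 over all introns. RK-33 cells gave 1152 and 183 (33.5%, against 26%, 10.8% higher and 15.2% lower). NaAsO2 cells gave 187 and 58 (6.15%, against 11.1%, 5.19% higher and 5.95% lower), and Combo cells 282 and 52 (8.39%, against 12.8%, 4.13% higher and 8.63% lower), or 830 and 71 without the 3 libraries that stood apart. Scaled instead by exon counts, which moved the median of all introns in Ctrl cells from -0.11 to 0.33, the Ctrl count was 1816 higher and 63 lower and the RK-33 count 2291 and 87. The long introns were thus higher under both scalings, but by how much depended on the scaling. A lower amount of a gene's RNA per cell and fewer cells that contain it cannot be told apart in bulk extracts.

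**Figure D4:**
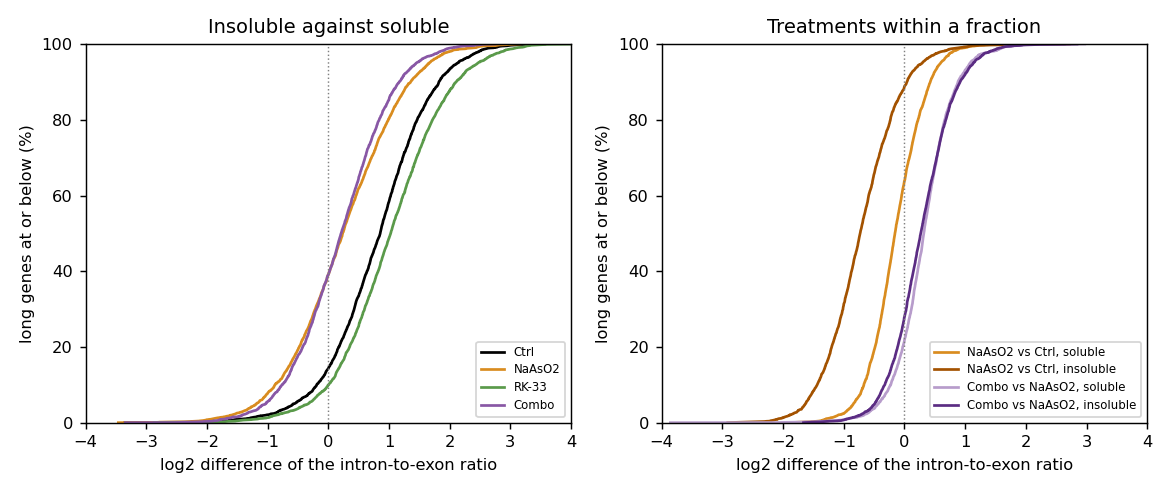
Cumulative share of the 2974 tested long-intron genes (y, %) against the log2 difference of the intron-to-exon ratio (x). Left, insoluble minus soluble in the 4 treatments, with medians of 0.86 in Ctrl, 0.24 in NaAsO2, 1.03 in RK-33 and 0.21 in Combo. Right, NaAsO2 minus Ctrl and Combo minus NaAsO2 in each fraction, with medians of -0.16, -0.73, 0.32 and 0.27.

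Arsenite lowered the ratio of the long-intron genes in the pellet. In the insoluble fraction 910 were lower and 12 higher in NaAsO2 than in Ctrl cells (31.0% of 2974, against 31.9% of all genes, 30.7% lower and 1.11% higher), with a median log2 difference of -0.73 against -0.68, so the share called was at the background of all genes. Leaving out NaAsO2 insoluble replicate 2 left 577 lower and 26 higher. In the soluble fraction 54 were lower and 12 higher (2.22%, against 11.4%, 11% lower and 0.376% higher), with a median of -0.16 against -0.38. By length the soluble medians went from -0.50 below 10 kb to -0.04 at 500 kb and above, while the insoluble medians lay between -0.55 and -0.77. Both comparisons share the Ctrl or NaAsO2 libraries with those between fractions above. KCNQ1OT1 stood at 49.0 to 59.9 CPM in the insoluble Ctrl and 25.9 to 46.1 CPM in the insoluble NaAsO2 libraries, and MALAT1 at 4954 to 7175 and 1075 to 2524 CPM. Their part in these differences was not tested.

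The direction of the intron level itself depended on the scaling. With scaling over introns 101 long introns were higher and 31 lower in the NaAsO2 pellet (3.32%, against 14.1% of all introns, 10.2% higher and 3.85% lower), and with scaling by exon counts 21 were higher and 756 lower. That change of scaling moved the median of all introns from 0.09 to -0.43. The ratio is free of this choice. In the soluble fraction 15 were higher and 16 lower at the intron level (0.779%, against 2.52%, 0.925% higher and 1.59% lower), a direction that 4 of the alternatives turned.

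NEK7, a mitotic kinase that also takes part in inflammasome assembly, had the smallest adjusted p of the genes that fell. Its ratio went from 3.20, 2.58 and 2.20 in the Ctrl pellet to 0.467, 0.347 and 0.381 in the NaAsO2 pellet (log2 -2.73, SE 0.29, adjusted p = 6.99e-08). In the soluble fraction NEK7 had 1.09, 0.690 and 0.991 against 0.928, 1.17 and 0.757, values that overlapped (log2 0.05, adjusted p = 0.937). Its insoluble exon level was higher by 1.15 and its intron level lower by 0.74 under NaAsO2. The exon and intron levels were each scaled on their own, so they do not add up to the ratio difference. CCNG2 fell from 1.3, 1.37 and 1.08 to 0.397, 0.273 and 0.224 (log2 -2.09, SE 0.24, adjusted p = 2.17e-07), also with an exon level higher by 1.15. PTN fell by 1.47 on the log2 scale (adjusted p = 8.72e-05), and here the intron level was lower by 1.34 and the exon level by 0.68.

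Very few genes rose. VMP1, which acts in autophagosome formation, went from 0.386, 0.373 and 0.405 to 0.912, 0.708 and 4.12 in the pellet (log2 1.79, SE 0.36, adjusted p = 0.00025), with an exon level lower by 2.45 on the log2 scale, and its highest value came from the replicate that stood apart, without which the difference was 1.05. NUCB2, a calcium-binding protein of the Golgi, went from 0.469, 0.456 and 0.416 to 0.969, 0.721 and 2.53 (log2 1.41, adjusted p = 0.000456). The NUCB2 call was lost without that library, where the difference was 0.91. MGAT5, an enzyme that branches N-glycans, rose in the soluble fraction from 0.466, 0.378 and 0.545 to 0.856, 1.56 and 0.893 (log2 1.21, adjusted p = 0.007) with an exon level lower by 1.29, a call lost without NaAsO2 soluble replicate 2. CECR2, a bromodomain protein of chromatin remodelling, rose from 0.624, 0.511 and 0.708 to 1.03, 2.12 and 1.67 (log2 1.34, adjusted p = 0.00344). POLR1D, a subunit shared by RNA polymerases I and III, fell in the soluble fraction from 0.304, 0.225 and 0.272 to 0.0917, 0.145 and 0.0822 (log2 -1.35, adjusted p = 0.00194) and in the pellet by 2.00 on the log2 scale. MRPL33 also fell in the soluble fraction (log2 -1.33, adjusted p = 0.00132). As 4.1% of its intron bases were its own, its counts may rest on a small part of its introns.

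The difference between the fractions itself was smaller in NaAsO2 than in Ctrl cells. Tested as an interaction, it was lower in 331 long-intron genes and higher in 3 (11.2% of 2974, against 6.52% of all genes, 6.1% lower and 0.422% higher), with a median of -0.57 against -0.28. The called share was 2.64% below 10 kb, 6.16% from 10 to 100 kb, 10.2% from 100 to 200 kb, 12.7% from 200 to 500 kb and 11.9% at 500 kb and above. This count depended on single libraries: it was 846 without the 3 libraries that stood apart, 650 without NaAsO2 insoluble replicate 3 alone, and 89, 87, 184, 70 and 172 without Ctrl soluble replicate 2, Ctrl insoluble replicate 1, Ctrl insoluble replicate 2, NaAsO2 soluble replicate 2 and NaAsO2 insoluble replicate 2. With the soluble and insoluble library of the same number as a block it was 49, all of them lower. NEK7 had the smallest adjusted p here too (log2 -2.78, SE 0.41, adjusted p = 0.000379). ZNF678, a zinc finger gene, had 0.710, 0.733 and 0.841 against 1.86, 1.62 and 1.39 in Ctrl cells, and 0.949, 1.33 and 1.10 against 0.309, 0.266 and 0.665 in NaAsO2 cells, so the order of its fractions turned (log2 -2.69, adjusted p = 0.00054). AUTS2, a regulator of neural transcription, had fractions that no longer separated: its pellet ratio went from 13.2, 12.5 and 11.9 to 5.38, 3.94 and 2.74, while its soluble ratio was 4.84, 4.58 and 5.64 and then 6.16, 8.78 and 5.28 (interaction log2 -2.09, adjusted p = 0.00534).

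**Figure D5:**
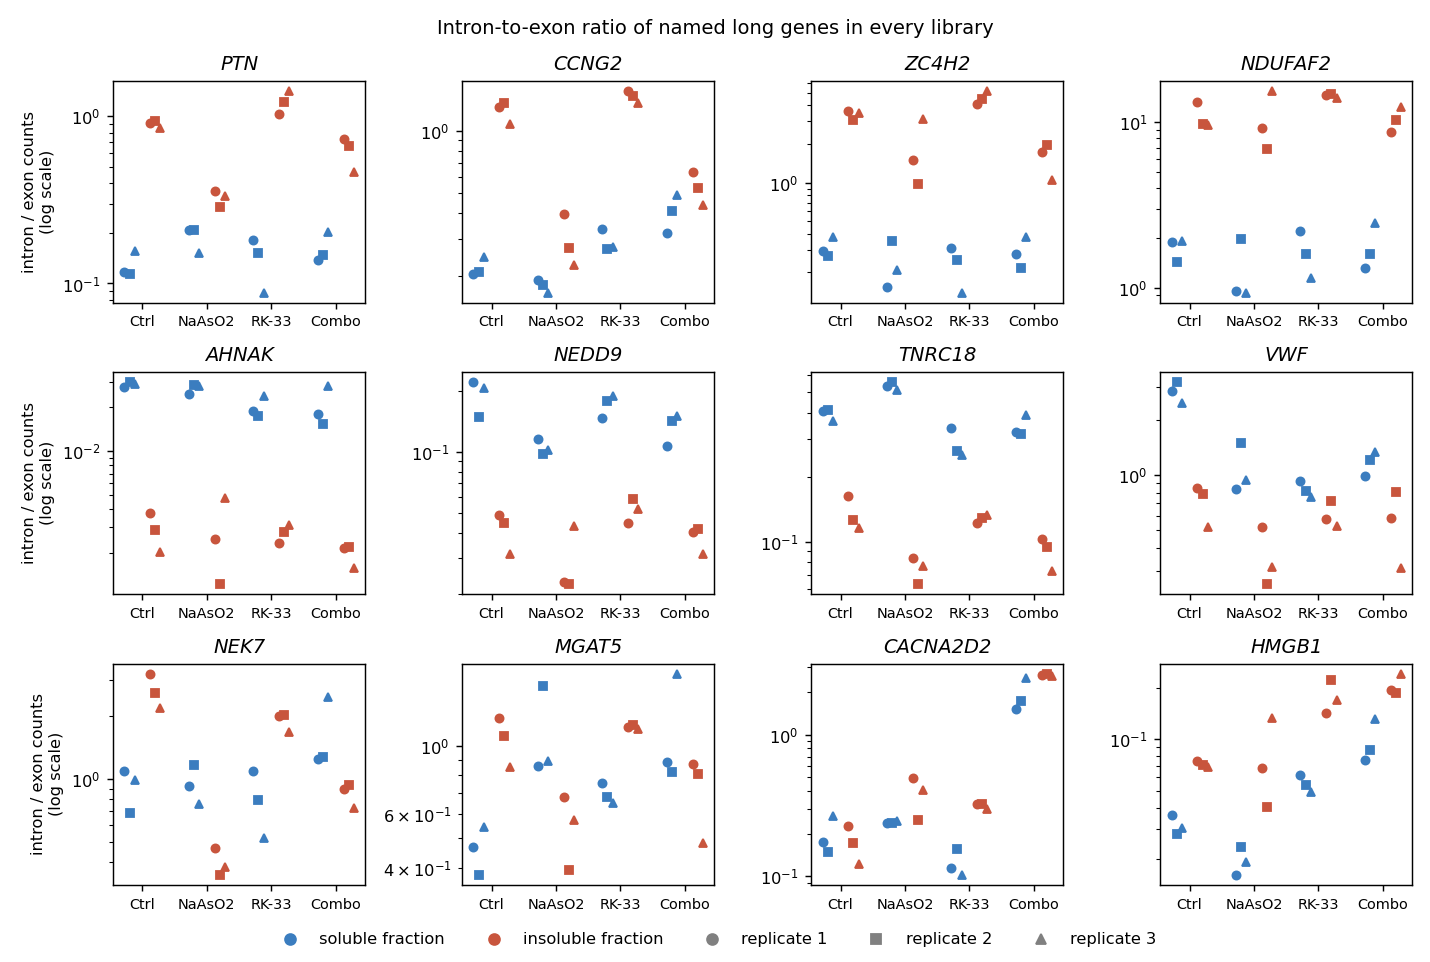
Intron-to-exon count ratio (y, log scale) in every library for 12 genes with over 100 kb of introns, by treatment and fraction, 3 replicates each. In Ctrl cells PTN, CCNG2, ZC4H2 and NDUFAF2 lie higher in the insoluble fraction and AHNAK, NEDD9, TNRC18 and VWF lower, NEK7 falls in the NaAsO2 pellet, and CACNA2D2 and HMGB1 lie higher in Combo than in NaAsO2.

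RK-33 given before arsenite raised the ratio relative to arsenite alone in a small part of the long-intron genes, a share below that of all genes in both fractions. In the pellet 174 were higher and 11 lower in Combo than in NaAsO2 cells (6.22% of 2974, against 7.98% of all genes, 7.58% higher and 0.399% lower), with a median log2 difference of 0.27 against 0.20. In the soluble fraction 145 were higher and 12 lower (5.28%, against 9.47%, 9.22% higher and 0.248% lower), with a median of 0.32 against 0.34. Without the 3 libraries that stood apart the pellet count became 407 higher and 4 lower and the soluble count 53 and 19, so these libraries pulled the fractions in opposite directions. Single libraries mattered as well: leaving out Combo insoluble replicate 1 left 72 higher and 7 lower in the pellet, replicate 2 left 74 and 11, and replicate 3 or NaAsO2 insoluble replicate 1 gave 300 and 10 or 311 and 13. In the soluble count, leaving out Combo replicate 3 left 40 and 14, NaAsO2 replicate 1 left 64 and 12 and NaAsO2 replicate 3 left 52 and 10, while Combo replicate 1 gave 256 and 9 and NaAsO2 replicate 2 gave 267 and 9. KCNQ1OT1 moved along, at 12.95 to 14.8 and 31.1 to 82.5 CPM in the soluble NaAsO2 and Combo libraries and 25.9 to 46.1 and 104.3 to 154.8 CPM in the insoluble ones. Its part was not tested. Whether RK-33 changed the difference between the fractions under arsenite was tested as an interaction, which called 0 genes of the 2974 (0.0% of all genes) by edgeR's quasi-likelihood test, with 75 at an unadjusted p under 0.05, and 0 by a likelihood ratio test and by limma.

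At the intron level 220 long introns were higher and 34 lower in the Combo than in the NaAsO2 pellet (6.38%, against 10.3% of all introns, 6.36% higher and 3.96% lower), and 111 and 18 in the soluble fraction (3.24%, against 6.27%, 5.37% higher and 0.902% lower). Leaving out Combo soluble replicate 3 gave 64 and 21 in the latter, and leaving out NaAsO2 insoluble replicate 1 gave 337 and 57 in the pellet.

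CACNA2D2, an auxiliary subunit of voltage-gated calcium channels, had the smallest adjusted p in both fractions. Its soluble intron counts were 28, 26 and 30 in NaAsO2 and 213, 151 and 285 in Combo libraries, and its ratio went from 0.237, 0.239 and 0.246 to 1.52, 1.74 and 2.52 (log2 2.97, SE 0.30, adjusted p = 2.82e-07). In the pellet CACNA2D2 went from 0.493, 0.250 and 0.405 to 2.64, 2.7 and 2.61 (log2 2.84, SE 0.27, adjusted p = 1.41e-07). RK-33 alone gave 0.115, 0.157 and 0.102 (soluble) and 0.325, 0.327 and 0.297 (insoluble), and Ctrl cells lay at 0.149 to 0.266 and 0.122 to 0.226. HMGB1, an architectural protein of chromatin, rose from 0.0162, 0.0237 and 0.0193 to 0.0753, 0.0866 and 0.130 in the soluble fraction (log2 2.28, adjusted p = 6.59e-06) and by 1.56 in the pellet. PLPP3, a lipid phosphatase of the plasma membrane, rose in the pellet from 0.771, 0.551 and 0.903 to 2.71, 3.44 and 3.14 (log2 2.10, adjusted p = 2.65e-05). The libraries of both treatments did not overlap in any of these comparisons, except that the HMGB1 pellet value of 0.132 in NaAsO2 replicate 3, a library that stood apart, came near the lowest Combo value of 0.187.

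DOK5, an adaptor of receptor tyrosine kinases, and CECR2 ran the other way. DOK5 fell in the pellet from 7.93, 4.16 and 6.29 to 2.31, 3.08 and 1.54 (log2 -1.41, adjusted p = 0.00296) and in the soluble fraction by 1.27 on the log2 scale. CECR2, which had risen with NaAsO2 in the soluble fraction, stood at 0.379, 0.456 and 0.676 in the soluble Combo libraries (log2 -1.66 against NaAsO2, adjusted p = 0.000277). CHD7, a chromatin remodeller, was also lower in the soluble fraction. In FRMD6-AS2 (log2 -1.25 in the pellet) 24.03% of the intron bases were its own.

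RK-33 alone left the ratios of nearly all long-intron genes within the limits of the test. In the soluble fraction 1 gene was called lower against Ctrl and none higher (0.0336%, against 0.113% of all genes, 0.0828% higher and 0.0301% lower), with 180 at an unadjusted p under 0.05. That gene was VWF, the von Willebrand factor of blood clotting, with 2.87, 3.20 and 2.46 in Ctrl and 0.927, 0.821 and 0.761 in RK-33 libraries (log2 -1.75, adjusted p = 0.0306), and the call was lost whenever any of these 6 libraries was left out. In the pellet 15 were higher and 2 lower (0.572%, against 1.42%, 1.23% higher and 0.188% lower). Leaving out any 1 of those 6 libraries left between 0 and 9 calls, and leaving out the 3 libraries that stood apart gave 36. ABCB1, the drug efflux pump P-glycoprotein, had 0.324, 0.315 and 0.211 in the Ctrl and 0.837, 0.835 and 0.892 in the RK-33 pellet (log2 1.62, SE 0.33, adjusted p = 0.00791), and 58.3% of its intron bases were its own. ABCB1 was also higher in Combo than in NaAsO2 cells, by 1.60 in the pellet and 1.90 in the soluble fraction. ERP44, a chaperone of the secretory pathway, had 0.945, 0.893 and 0.920 against 2.08, 2.75 and 2.69 (log2 1.43, adjusted p = 0.00682), a call lost without RK-33 insoluble replicate 2 or 3, as that of ABCB1 was without Ctrl or RK-33 insoluble replicate 3. The pair called lower included ZNF420 (log2 -1.43).

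Genes at common fragile sites, whose very long units replicate late, lay toward the high end in the pellet. Of 20 on the list, all with introns over 100 kb, 17 were tested, and in Ctrl cells 13 were higher in the pellet and 0 lower, with a median log2 difference of 1.40 against 0.55 over all genes. The share called higher was 76.5%, against 25.2% of all genes and 54.0% of the genes with 500 kb or more of introns, whose median was 1.08. In RK-33 cells 15 of 17 were higher (88.2%, against 36.6% of all genes and 65.5% at 500 kb and above), with a median of 1.58. Their summed intron density was 0.0525 to 0.0755 counts per kb and per 1e6 library counts in the soluble and 0.181 to 0.216 in the insoluble Ctrl libraries. WWOX, an oxidoreductase gene at the fragile site FRA16D, had ratios of 7.86, 5.75 and 10.5 against 33.5, 34.3 and 33.2 in Ctrl cells (log2 2.11, SE 0.33, adjusted p = 1.62e-05), and under NaAsO2 its pellet held 31.5, 20.8 and 31.5. RAD51B, a recombination factor, was higher by 1.01 in Ctrl cells, while LSAMP, an IgLON adhesion molecule, had a difference of 0.54 that missed the size limit. Under NaAsO2 6 of the 17 were lower in the pellet than in Ctrl, AUTS2 among them, and 0 were higher, which at 35.3% was near the 30.7% of all genes called lower.

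Neuronal adhesion and synapse genes had low exon levels, with a median of 0.272 exon counts per kb and per 1e6 exon counts and the highest, 16.7, in NTM. All 26 on the list were long-intron genes and 20 were tested, of which 8 were higher in the Ctrl pellet and 0 lower (median 0.96), about the 40.5% of all long-intron genes, where 25.2% of all genes were higher. In RK-33 cells 14 were higher and 0 lower (median 1.39), against 50.6% of the long-intron genes and 36.6% of all genes called higher. NTM had 4.5, 3.87 and 5.67 in the soluble and 26.8, 27.4 and 23.2 in the insoluble Ctrl libraries (log2 2.48, SE 0.28, adjusted p = 4.53e-07), without overlap. PCDH9, a protocadherin, and NRXN3, a presynaptic neurexin, were higher by 1.69 and 1.22 in Ctrl cells. Under NaAsO2 5 of 20 were lower in the pellet, PCDH9 included (log2 -1.24), which was below the 30.7% of all genes.

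Most of the transcription and chromatin regulators on the list were lower in the NaAsO2 than in the Ctrl pellet. Of 37 on the list 36 were long-intron genes and 35 were tested. In Ctrl cells 20 were higher in the pellet and 0 lower (median 1.19), or 57.1% against 25.2% of all genes called higher, and in RK-33 cells 24 and 0 (median 1.26), or 68.6% against 36.6%. In the NaAsO2 pellet 23 were lower than in Ctrl and 0 higher (65.7%, against 30.7% of all genes and 30.6% of the long-intron genes), with a median of -1.26 against -0.68 over all genes. Between the fractions of NaAsO2 cells 4 were higher and 1 lower (14.3%, against 23.6% of all genes called). The fraction difference was called smaller under NaAsO2 in 13 of the 35 (37.1%, against 6.1% of all genes), with a median of -1.22. RORA, a nuclear receptor, had 7.75, 6.12 and 7.47 against 30.6, 34.9 and 27.1 in Ctrl cells (log2 2.12, SE 0.28, adjusted p = 2.64e-06), though 76.6% of its intron bases were its own. HDAC9, a class IIa histone deacetylase, fell in the pellet from 7.25, 7.35 and 6.87 to 4.35, 2.91 and 2.79 under NaAsO2 (log2 -1.12, adjusted p = 0.00228) and stood at 7.14, 7.24 and 6.78 in Combo cells (log2 1.10 against NaAsO2, adjusted p = 0.0116). ARID1B, a subunit of the SWI/SNF remodeller, fell by 1.25 in the NaAsO2 pellet. In the soluble fraction 0 of the 35 were called under NaAsO2.

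Extracellular matrix and adhesion genes were divided. All 24 were long-intron genes and were tested, and in the Ctrl pellet 8 were higher and 4 lower, with a median of 0.50 against 0.55 over all genes. These are 33.3% higher and 16.7% lower, against 25.2 and 2.09% of all genes. CDH4, a cadherin, had 0.920, 0.724 and 1.05 against 2.93, 2.59 and 2.12 in Ctrl cells (log2 1.51, adjusted p = 0.000124) and 1.03, 0.887 and 0.768 against 5.67, 6.11 and 5.90 in RK-33 cells (log2 2.73, adjusted p = 3.7e-08). CDH4 was also 1 of the 15 genes higher in the RK-33 than in the Ctrl pellet (log2 1.22, adjusted p = 0.0189). CDH13, another cadherin, was higher by 1.81 and SMAD3, a transducer of TGF-β signals, by 1.16 in the Ctrl pellet. The 4 lower ones were HMCN1 (log2 -1.61), FBN1 (-1.27), FBN2 (-1.24) and COL12A1 (-1.09), all of them genes of large secreted matrix proteins, named after their values were seen. In the NaAsO2 pellet 7 of 24 were lower and 0 higher than in Ctrl, or 29.2% against 30.7% of all genes called lower.

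TRIO, the gene with the most intron counts per kb of full intron length, differed between the fractions under arsenite. It had soluble ratios of 2.18, 3.27 and 2.30 and insoluble ratios of 0.767, 0.490 and 0.560 in NaAsO2 cells (log2 -2.10, SE 0.27, adjusted p = 1.77e-06), but 2.12, 1.84 and 2.15 against 1.89, 1.60 and 1.31 in Ctrl cells (log2 -0.36, adjusted p = 0.3). The TRIO fraction difference was lower in NaAsO2 than in Ctrl cells (log2 -1.73, adjusted p = 0.00842), a call lost with the replicate number as a block (adjusted p = 0.0682). Genes of trafficking and ubiquitin ligation had a median log2 difference below the 0.55 of all genes in the Ctrl comparison. Of 25 such genes tested 5 were higher and 3 lower in the Ctrl pellet (median 0.49), against 25.2% higher and 2.09% lower over all genes. The lower ones were HERC2 (log2 -1.40), LRBA (-1.11) and BIRC6 (-1.11), named after their values were seen. In the NaAsO2 pellet 8 of the 25 were lower than in Ctrl, at the background of 30.7% over all genes. RABGAP1L, a Rab GTPase-activating protein, was among those higher in the Ctrl pellet (log2 1.34). VPS13B (log2 0.03), NBAS (-0.26) and SMURF2 (0.66), which had more intron counts than RABGAP1L, were not called in that comparison. The nuclear RNAs PVT1 and FTX were the only members on their list, and neither was called in any of the 4 fraction comparisons.

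The 6 longest genes did not all move alike. CNTNAP2, a neurexin family member with 2283767 intron bases, had 0.613, 0.436 and 0.528 against 4.44, 2.69 and 2.83 in Ctrl cells (log2 2.62, adjusted p = 7.22e-06), without overlap. RBFOX1, a splicing regulator, had 15.6, 13.05 and 28.1 against 33.7, 22.9 and 22.03, which overlapped (log2 0.55, adjusted p = 0.243), and it rested on 546 exon counts over all libraries. DLG2, a synaptic scaffold, had 9.22, 9.01 and 10.1 against 19.6, 18.96 and 16.6 (log2 0.96, adjusted p = 0.00498), just short of the size limit, and was called in RK-33 cells (log2 1.49). MACROD2 was called in Ctrl cells (log2 1.24, adjusted p = 0.019) and lost that call without Ctrl soluble or insoluble replicate 1. PTPRD, a receptor phosphatase, had a difference of 0.94 (adjusted p = 0.0285). DMD, the dystrophin gene, had 77 exon counts over all libraries and was not tested.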

How the data were processed

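RNA from the soluble and insoluble cytoplasm of U2OS cells was sequenced after ribosomal RNA depletion in 24 libraries (8 groups of 3). The authors aligned reads with STAR 2.7.2b to GRCh38.p13, used SAMtools 1.2, and counted read pairs without strand by gene name with featureCounts (Subread), so that the deposited values are raw counts per gene, 1 table for exons (60308 genes) and 1 for introns (37473), the introns being what merged exons of all genes leave of a gene. Of the 244 long rows without a count 234 had no unshared intron base, while 7 members without an unshared base held counts. Reads in intron bases shared by several genes were thus largely left uncounted. Depth was 10968059 to 19799530 counts per library.

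The members, gene lists and named genes were chosen with earlier results of these data known. Intron levels were tested with edgeR 4.0.16 (R 4.3.3; quasi-likelihood, TMM, mean of at least 1 CPM) on all 24 libraries. The ratio was tested in the same way on exon and intron counts together, with a term per library and intron by group terms. All p-values were adjusted after Benjamini and Hochberg over all genes tested. A ratio is intron counts over exon counts of a gene, not divided by length. On simulated counts the tests recovered 153 (ratio) and 197 (intron level) of 200 changed genes. DESeq2 1.42.0, limma 3.58.1, a likelihood ratio test, other scalings and filters, a replicate block and single libraries left out were alternatives. Eligible to be named were the 2 genes with the smallest adjusted p in each direction of each ratio comparison (at least 50 mean intron and exon counts). The 6 longest, the 6 densest, the 4 with most intron counts of each list and the 2 nearest the length limit on each side were also eligible. MACROD1, TIAM1, DOCK1 and DOCK5 met these rules and are not described above. Splice sites came from hg38 with GENCODE genes. Back-splice counts were used only for host genes, and linear junction counts were not used. Some items are not reported here.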

Additional observations from a re-analysis of the deposited data

Results flagged for a closer look

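The fraction difference of the intron-to-exon ratio differed between NaAsO2 and Ctrl cells in 334 long-intron genes (11.2% of the 2974 tested, against 6.52% of all genes), by an interaction term in edgeR's quasi-likelihood test. It was smaller under NaAsO2 in 331 and larger in 3. NEK7 had the smallest adjusted p. Of the genes called smaller 98.8% were protein coding, against 85.3% of those called neither way. Their median exon level was 5.59 counts per kb and per 1e6 exon counts, against 2.53 in those called neither way. Genes with more counts are called more readily, and the part of this in both contrasts was not tested. The count of 334 depended on single libraries and on the design. It was 70 without NaAsO2 soluble replicate 2 and 650 without NaAsO2 insoluble replicate 3. With the soluble and insoluble library of the same number as a block it was far lower, as given above.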

How the results depend on the processing

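The values here are shares (%) of tested long-intron genes called. Over 358 alternatives to the summary results 285 stayed within 1.5 times the reported value and in its direction, 68 moved and 5 reversed, and of 876 alternatives to 78 single-gene results 836 kept the call and 40 lost it. The cause was not tested.

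At the intron level, exon scaling gave 47.2 (Ctrl fractions), 59.7 (RK-33 fractions), 1.31 (NaAsO2 against Ctrl, soluble), 19.5 (the same, insoluble, direction reversed) and 5.3 (Combo against NaAsO2, soluble). Without a size limit the fractions gave 57.2 in Ctrl, 22.8 in NaAsO2, 65.9 in RK-33 and 37.4 in Combo, NaAsO2 against Ctrl 2.96 (soluble, reversed) and 22.3, and Combo against NaAsO2 12.2 and 25.5. Soluble NaAsO2 against Ctrl gave 1.21 by the likelihood ratio test, and 0.804 by DESeq2 and 0.661 for genes with at least 90% of their bases unshared, both reversed. For the ratio, no size limit gave 3.77 and 48.6 (NaAsO2 against Ctrl, soluble and insoluble). RK-33 against Ctrl gave 0.101 and 0.975 by the likelihood ratio test, 0.269 by limma (insoluble), and 0.0 and 0.288 in genes with no other gene's exon inside, where the gain in share was 1.03 points.

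Without the 3 libraries that stood apart, an alternative chosen after seeing the data, the intron level gave 22.6 (Combo fractions), 1.46 and 2.08 (NaAsO2 against Ctrl, soluble, reversed, and insoluble), and the ratio gave 30.2 (Combo fractions), 2.42 and 13.8 (Combo against NaAsO2), 0.135 and 1.21 (RK-33 against Ctrl) and 28.5 (interaction). With the replicate number as a block the interaction gave 1.65, and no other summary count moved by over 1.5 times. Same-numbered libraries did not deviate together (correlations from -0.105 to 0.0664 for the ratio and from -0.434 to 0.201 for the intron level, 12 pairs), and the labels do not state that a number marks 1 lysate, so the tests were made without the block, although the study compared the fractions as pairs.

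Leaving out 1 library gave, at the intron level, 18.7 to 23.6, 4.85 to 7.76, 27.4 to 39.0 and 5.63 to 16.2 for the fractions of Ctrl, NaAsO2, RK-33 and Combo, 0.528 to 0.779 and 1.96 to 6.58 for NaAsO2 against Ctrl, and 2.14 to 3.69 and 4.32 to 9.90 for Combo against NaAsO2. For the ratio it gave 34.1 to 44.8, 20.8 to 29, 43.0 to 58.8 and 15.1 to 25.4 for the fractions, 0.639 to 3.6 and 20.3 to 39.7, 1.82 to 9.28 and 2.66 to 10.9 for the same treatment comparisons, 0.0 and 0.0 to 0.303 for RK-33 against Ctrl, and 2.35 to 21.9 for the interaction. Genes with few exon counts, DMD among them, were beyond the depth of the ratio test.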

Other observations

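Circular RNAs, which arise when a downstream splice donor joins an upstream acceptor, came mostly from long-intron genes. Of 394 circular RNAs with back-splice counts, 234 (59.4%) had a host with at least 100 kb of introns. These hosts were 177 genes, or 4.05% of the 4369, against 0.517% of the 21462 other genes with an intron count. Members held 10262 of 16947 back-splice counts, with a share per library of 57.0 to 63.9% in the soluble and 52.2 to 65.8% in the insoluble libraries, ranges that overlapped.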
